A study of Mus musculus with 6 samples.

Results

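The genes described are 10 members of the BCL2 family of survival and death genes: Bcl2, Bcl2l1 and Mcl1, which protect cells, and Bak1, Bok, Bcl2l11, Bid, Bad, Bmf and Bnip3, which promote cell death. Every probe that carried a member's gene name was taken, whatever its signal, from 6 mouse whole-genome arrays. This gave 18 probes of the 41174 non-control probes on the array, and 10 of its 29742 gene names. Bcl2 and Bmf had 3 probes each, Bcl2l1, Mcl1, Bak1 and Bad had 2 each, and Bok, Bcl2l11, Bid and Bnip3 had 1 each.

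The cells were primary mouse embryonic fibroblasts, connective tissue cells grown from embryos of day 15, on a mixed genetic background that is in part Black Swiss. They were wild type or homozygous for a Wrn allele that lacks part of the helicase domain, a mouse model of Werner syndrome, here called the mutant. On 2 arrays wild type cells given 0.5 mM H2O2 for 1 hour and left for 24 hours to recover were set against untreated wild type cells, 2 arrays made the same comparison in mutant cells, and 2 arrays set untreated wild type against untreated mutant cells. The questions were which genes follow oxidative stress in each genotype and which differ between genotypes without it. The labels call the arrays of a comparison biological replicates without saying how many embryos or cultures stood behind them, so a p-value measures only the spread between these samples. With 2 arrays a comparison, their number limits the precision.

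BCL2 family proteins meet at the mitochondrial outer membrane. Bcl2, Bcl2l1 (whose main product is Bcl-xL) and Mcl1 hold the effectors in check, while effectors such as Bak1 open the membrane and release cytochrome c, which starts the caspases. BH3-only proteins (Bcl2l11, also called Bim, Bid, Bad and Bmf) sense damage or loss of growth signals and either block the protective members or engage the effectors, and much of this control lies in protein cleavage, phosphorylation and turnover, which arrays do not read. Bnip3 is a related protein of the mitochondrial membrane known for its part in mitophagy and for its induction in low oxygen.

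Each value is a log2 ratio of the red dye (Cy5) over the green dye (Cy3) on an array, or a log2 intensity of a dye. On the treatment arrays the treated sample was always in Cy5, so within a ratio dye and treatment cannot be told apart. The difference between the mutant and the wild type ratio, and the comparison of genotypes within a dye, are free of a fixed preference of a probe for a dye. Within a dye each genotype lay on arrays of its own, so differences between arrays enter that comparison. The Cy3 and Cy5 values came from the same spots, so the comparisons in Cy3 and in Cy5 are not independent. On the genotype arrays the labels put wild type in Cy5 and mutant in Cy3, whereas the heading of the study's own table for this comparison names the opposite ratio. These values are therefore given as Cy5 over Cy3: a value above 0 is higher in wild type by the labels and higher in mutant by the table heading.

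The arrays differed in quality. The scanner software marked 22.6% of non-control spots as outliers on the array of wild type replicate 2, 8.81% on that of mutant replicate 2 and 0.40% to 3.25% on the other 4, and these marks took out 11 of the 108 values of the members. Well above background were 75.8% to 90.0% of spots in Cy3 but only 41.5% to 69.2% in Cy5, and no member spot was saturated. The fibroblast markers were well above background in Cy3 on every array for 9 of 11 genes. Summed levels in untreated cells are given as log2, in replicate order and with marked spots kept. That of the fibroblast markers was 15.33 and 14.99 in wild type against 15.71 and 15.81 in mutant. In the same samples muscle markers summed to 11.83 and 12.42 against 12.02 and 12.03, and epithelial markers to 9.70 and 10.51 against 9.72 and 9.84. Macrophage markers summed to 8.42 and 8.17 against 8.80 and 8.34, and endothelial markers to 6.70 and 7.58 against 6.68 and 6.68. Epithelial, endothelial and muscle sums were highest in wild type replicate 2, and their part in the results was not tested. Wrn had 4 probes, none called in the treatment comparisons or within a dye. A_52_P498492 was called on the genotype arrays, at -0.77 and -1.04, Cy5 over Cy3 (fitted -0.91, SE 0.16, limma adjusted p = 0.0115), and was not well above background in Cy5 on any array. The sources used here do not place the probes relative to the deleted part, so they check nothing about the labels.

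The sequence just upstream of the start is shown for Bnip3, Bak1 and Bmf, because the treatment ratios turned on Bak1 and Bnip3 and the genotype values on Bmf. The 250 bases before the annotated start were taken from RefSeq on GRCm38.p6, all on the minus strand: chr17:27028628-27028877 for Bak1, chr2:118549687-118549936 for Bmf and chr7:138909507-138909756 for Bnip3. Capitals mark the bases that matched ACGTG, the core of the hypoxia response element, which reads on both strands in Bnip3 with 2 overlapping matches.
Bnip3: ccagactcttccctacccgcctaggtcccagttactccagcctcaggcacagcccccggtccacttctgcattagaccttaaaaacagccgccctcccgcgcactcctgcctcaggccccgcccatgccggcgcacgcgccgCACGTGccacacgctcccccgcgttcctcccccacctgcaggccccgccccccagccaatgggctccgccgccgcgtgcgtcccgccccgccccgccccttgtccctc
Bak1: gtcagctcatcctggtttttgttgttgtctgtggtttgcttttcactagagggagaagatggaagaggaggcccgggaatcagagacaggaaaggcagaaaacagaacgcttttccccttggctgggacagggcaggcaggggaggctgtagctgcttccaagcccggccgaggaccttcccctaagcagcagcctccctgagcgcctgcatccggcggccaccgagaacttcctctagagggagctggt
Bmf: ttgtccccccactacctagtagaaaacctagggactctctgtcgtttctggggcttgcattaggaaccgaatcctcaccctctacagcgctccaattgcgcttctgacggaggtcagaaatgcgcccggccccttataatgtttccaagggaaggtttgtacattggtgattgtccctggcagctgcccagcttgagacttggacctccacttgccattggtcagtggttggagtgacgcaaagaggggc

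Both strands of these windows, and of 16 windows over the 10 members in all, were searched for letter patterns. ACGTG was in 1 of the 16, that of Bnip3, and in 16.6% of the 32841 windows of all genes. TGACNNNGC, the core of the antioxidant response element, was in 1 of the 16, belonging to Bcl2l1, against 10.2% of all windows. GTAAACA, bound by FOXO factors, was in the Bcl2l11 window only, against 3.17%, and TTGCATCA, bound by ATF4 with CHOP, was in no member window, against 0.792%. G and C made up 72.4% of the Bnip3 window, 58.4% of that of Bak1 and 54% of that of Bmf. A match describes the letters alone.

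After H2O2, no member passed the test in either genotype. In wild type cells 0 of 18 probes reached an adjusted p under 0.05, against 0.258% of the 40303 probes with a value (limma, Benjamini-Hochberg). In mutant cells it was 0 of 18, against 0% of 41052. At an unadjusted p under 0.05 there were 2 member probes in wild type, Bid and Bnip3, or 11.1% against 20% of all probes, and 2 in mutant, Bak1 and Bnip3, or 11.1% against 12%. The study's thresholds were fold 2, mean log2 intensity 6 and adjusted p 0.005. In the fit used here no member met them, against 0% of all probes in both genotypes. The paper reports genes that met these thresholds in both genotypes. Its lists were thus not reproduced by this fit, and the reason was not tested. The median log2 ratio of the 18 probes was -0.19 in wild type and -0.18 in mutant, beside -0.01 and 0.01 over all probes. When a comparison took its spread from its own 2 arrays alone, 4 member probes passed in wild type (Bak1, Bcl2, Bid and Bnip3), beside 25.1% of all probes, and 4 in mutant (Bak1, Bcl2, Bnip3 and Bok), beside 10.7%. In these bulk samples fewer cells of a type and less RNA per cell cannot be told apart. In wild type the fibroblast markers had a median log2 ratio of -0.99, with 5 of 9 lower at an unadjusted p under 0.05. The muscle markers had -0.58, with 4 of 9 lower, against 10% of all probes. In mutant the medians were -0.29 and -0.14, with 1 of 10 and 1 of 9 lower, against 6.21% of all probes. The part of these markers in the member ratios was not tested.

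**Figure D1:**
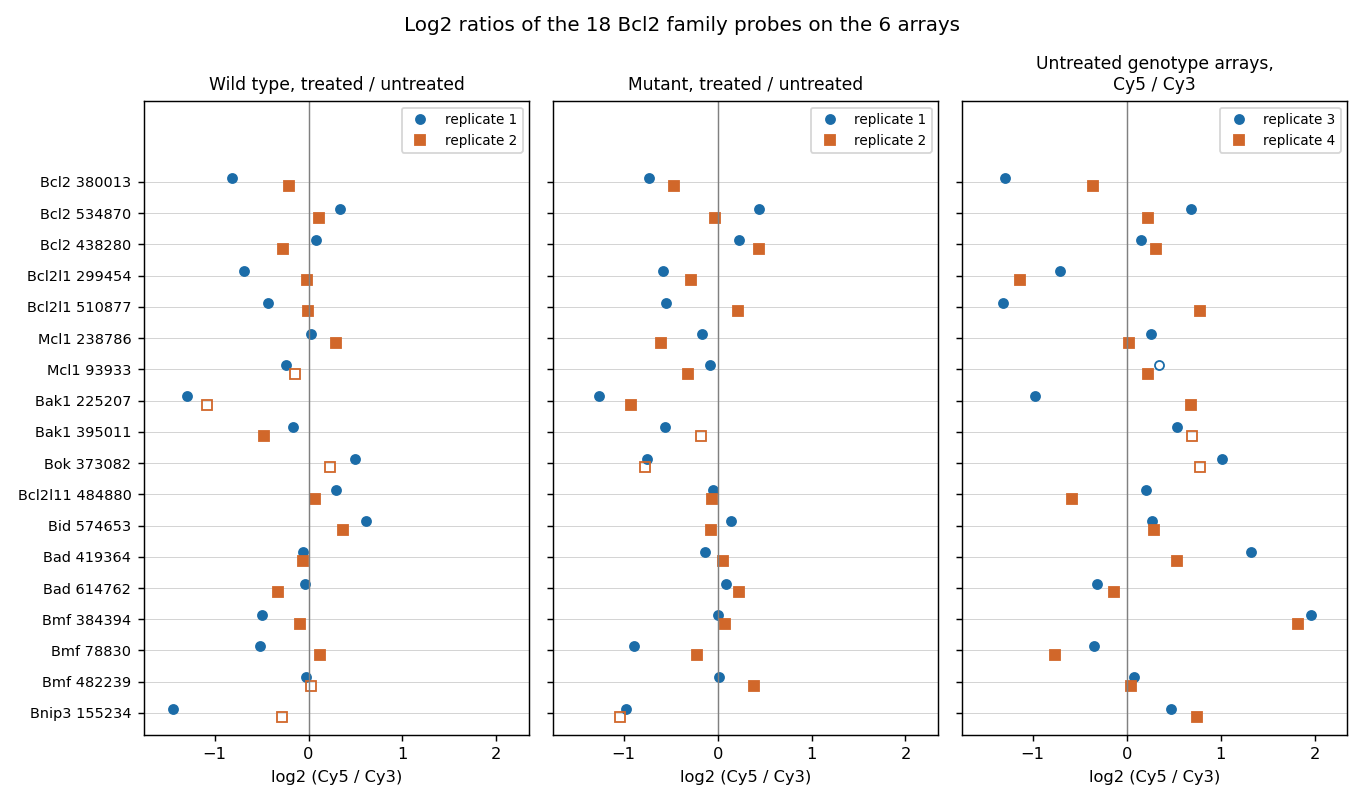
Log2 ratio of Cy5 over Cy3 (horizontal axis) for each of the 18 member probes, with a panel each for the wild type, mutant and genotype arrays and 1 symbol per array. Open symbols are spots marked as outliers, drawn at the value they had when kept. Bak1 probe A_52_P225207 lies between -1.29 and -0.92 on the 4 treatment arrays, and Bmf probe A_52_P384394 lies at 1.96 and 1.82 on the genotype arrays.

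Among the survival genes, Bcl2 (chr1:106538176-106714290), the founding member of the family, gave treated over untreated log2 ratios of -0.81 and -0.21 in wild type cells with probe A_51_P380013 (NM_177410). In mutant cells the ratios were -0.73 and -0.46. All 4 lay below 0. The fitted log2 ratio was -0.51 (SE 0.26, n = 2, limma adjusted p = 0.338) in wild type and -0.60 (SE 0.26, n = 2, limma adjusted p = 0.431) in mutant. On the genotype arrays, where neither dye carried treated RNA, the same probe read -1.29 and -0.36. There dye and genotype cannot be told apart. Cy5 was thus below Cy3 on all 6 arrays, which held for 2 of the 12 member probes with a value on every array, this and Bcl2l1 A_51_P299454, against 7.9% of all such probes. Cy5 was above Cy3 on all 6 arrays for 0 of the 12, against 11.4%. With each array centred on its median in place of loess, the Bcl2 values were 0.02 and 0.17. The other Bcl2 probes lay on both sides of 0: A_52_P534870 at 0.34, 0.11, 0.44 and -0.03, and A_52_P438280 at 0.08, -0.27, 0.23 and 0.44, in the same order of arrays.

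Bcl2l1 (chr2:152758732-152833803) read -0.69 and -0.02 in wild type and -0.58 and -0.28 in mutant with probe A_51_P299454. The fitted log2 ratios were -0.35 (SE 0.22, limma adjusted p = 0.427) and -0.43 (SE 0.22, limma adjusted p = 0.477). The replicates of each genotype were further apart than the genotypes. Its other probe, A_52_P510877, was well above background in Cy5 on 1 of 6 arrays, so its ratios of -0.43, -0.01, -0.55 and 0.22 rest on dim signal.

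Mcl1 (chr3:95656944-95663179), whose protein turns over fast and is lost early in stressed cells, was the survival gene whose ratios were on opposite sides of 0 by genotype. Probe A_51_P238786 read 0.03 and 0.29 in wild type and -0.17 and -0.60 in mutant. The groups did not overlap, but how many of all probes had ratios without overlap was not counted. The difference of the responses, mutant minus wild type, was -0.54 (SE 0.25, limma adjusted p = 0.847). The second probe, A_52_P93933, read -0.24 in wild type and -0.08 and -0.31 in mutant, and so did not separate the genotypes. With median centring A_51_P238786 was at 0.70 in wild type and 0.33 in mutant, the same side of 0.

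Bak1 (chr17:27019812-27028627), an effector that forms the membrane pore, had the lowest ratios of the effectors. Probe A_52_P225207 read -1.29 in wild type replicate 1 and -1.26 and -0.92 in mutant, and the spot marked as an outlier in wild type replicate 2 read -1.08. Treated lay below untreated on all 4 arrays by a similar amount. The fitted log2 ratio was -1.29 (SE 0.54, 95% interval -2.61 to 0.02, limma adjusted p = 0.257) from 1 array in wild type, and -1.18 (SE 0.35, adjusted p = 0.111) with the marked spot kept. In mutant it was -1.09 (SE 0.38, 95% interval -2.02 to -0.16, limma adjusted p = 0.363), and -0.48 with median centring. The genotype arrays, with no treated RNA, gave -0.98 and 0.68 for this probe, on opposite sides of 0. They set wild type against mutant cells, so dye and sample cannot be told apart in them. The other Bak1 probe, A_51_P395011, read -0.16 and -0.47 in wild type and -0.56 in mutant replicate 1, with -0.18 in the marked spot of mutant replicate 2: the same side of 0, and smaller.

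Bok (chr1:93685575-93695770), an effector that can act without the usual activators, was the member with the lowest p for a difference of response between genotypes. Treated over untreated was 0.49 in wild type replicate 1 and -0.75 in mutant replicate 1, and the marked spots of the other replicates read 0.23 and -0.77. Each genotype thus kept its sign on both arrays. The response of mutant minus that of wild type was -1.24 (SE 0.39, 95% interval -2.32 to -0.16, unadjusted p = 0.0333, limma adjusted p = 0.832), and -1.13 (SE 0.23, unadjusted p = 0.00179, adjusted p = 0.368) with marked spots kept. None of the 18 probes passed in this comparison, against 0% of 40267, and Bok was the 1 member probe at an unadjusted p under 0.05, 5.56% against 5.94% of all probes. With median centring the mutant response of Bok was 0.39, on the other side of 0, and the difference -0.65, smaller than that of Bnip3 (1.16) and Bmf (0.84).

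None of the BH3-only genes passed with treatment. Bid (chr6:120893119-120917062), which caspase 8 cuts to carry a death receptor signal to the mitochondrion, read 0.61 and 0.37 in wild type and 0.14 and -0.07 in mutant. The wild type values lay above the mutant values, a separation whose share over all probes was not counted. The fitted log2 ratio in wild type was 0.49 (SE 0.16, 95% interval 0.11 to 0.86, limma adjusted p = 0.155), in mutant 0.03 (SE 0.16, limma adjusted p = 0.958), and the difference of -0.45 (SE 0.22) had a limma adjusted p of 0.849. With median centring Bid was at 1.03 in wild type and 0.76 in mutant.

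Bad (chr19:6941861-6951905), which growth factor signalling keeps inactive, read -0.06 and -0.06 in wild type and -0.13 and 0.06 in mutant with probe A_51_P419364. Its other probe, A_52_P614762, dim in Cy5, read -0.04, -0.32, 0.09 and 0.23. The ratios of both probes lay on either side of 0. Bcl2l11 (chr2:128126038-128162547) read 0.29, 0.07, -0.05 and -0.06, but was not well above background in Cy5 on any array, so no fold is given for it. Bmf (chr2:118528757-118549686), which is held at the cytoskeleton until cells detach, read -0.49 and -0.09 in wild type and 0.00 and 0.08 in mutant with probe A_52_P384394, which was not well above background in Cy5 on either wild type array. Of the other Bmf probes, A_51_P482239 read -0.03 in wild type replicate 1 and 0.01 and 0.39 in mutant, and A_52_P78830, dim in Cy5 throughout, read -0.52, 0.12, -0.89 and -0.22. Among the 3 Bmf probes the signs were mixed in both genotypes.

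Bnip3 (chr7:138890836-138909506) had the lowest fitted wild type ratio of all members with marked spots left out. Its probe read -1.44 in wild type replicate 1 and -0.97 in mutant replicate 1, and the spots marked as outliers in the other replicates read -0.28 and -1.04. Treated lay below untreated on all 4 arrays, and the wild type replicates were far apart. From 1 array each, the fitted log2 ratio was -1.44 (SE 0.26, 95% interval -2.11 to -0.77, limma adjusted p = 0.075) in wild type and -0.97 (SE 0.26, 95% interval -1.64 to -0.30, limma adjusted p = 0.308) in mutant. With marked spots kept the values were -0.85 (SE 0.27, adjusted p = 0.124) and -1.0 (SE 0.27, adjusted p = 0.231). Bak1 A_52_P225207 was then the lower in wild type, at -1.18. On the genotype arrays, where dye and genotype cannot be told apart, Bnip3 read 0.47 and 0.75, Cy5 over Cy3. With median centring the mutant value was 0.26, and that in wild type -0.90.

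**Figure D2:**
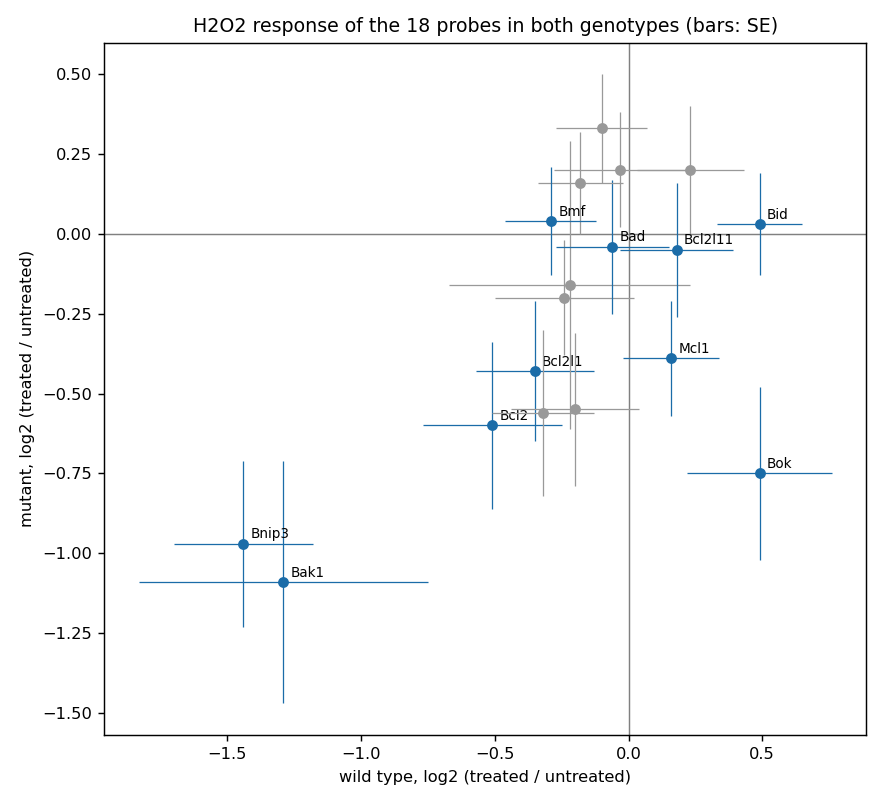
Log2 ratio of treated over untreated in wild type (horizontal axis) and in mutant cells (vertical axis) for the 18 member probes, with bars of 1 SE. Blue points are the labelled probe of each gene and grey points the other probes. Bak1 and Bnip3 lie low on both axes, and Bok lies at 0.49 in wild type and -0.75 in mutant.

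Without treatment, Bmf was the member with the lowest p between the genotypes, with 1 of its 3 probes. In Cy3, which carried untreated cells on the treatment arrays, probe A_52_P384394 (AK040622) had log2 intensities of 5.14 and 4.37 in wild type and 6.15 and 6.45 in mutant. The genotypes did not overlap. The difference, mutant minus wild type, was 1.54 (SE 0.41, 95% interval 0.66 to 2.42, limma adjusted p = 0.170), or 2.91-fold. In treated cells, in Cy5, the same probe read 4.66 and 4.28 in wild type, not well above background on either array, and 6.15 and 6.53 in mutant. By the measured means (6.34 and 4.47, limma adjusted p = 0.102) mutant was at least 2.80-fold higher there. This bound sets the mean of the mutant arrays against a floor for each wild type array. That floor is the lowest signal counted as well above background there, or the probe's own where higher. The bound leaves out the spread between samples: the fitted log2 difference was 1.87 (95% interval 0.99 to 2.75).

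This Bmf probe, on the genotype arrays, read 1.96 and 1.82, Cy5 over Cy3. The fitted value was 1.89 (SE 0.17, 95% interval 1.50 to 2.29, limma adjusted p = 0.00162), or 3.71-fold. By the labels it was higher in wild type and by the table heading in mutant. Over all probes, as a description, the Cy5 over Cy3 value of these arrays had r = 0.591 with mutant minus wild type in Cy3 of the treatment arrays and r = 0.348 with that in Cy5. The other Bmf probes were not called. A_51_P482239 was 0.77 (SE 0.53) higher in mutant in Cy3 and 1.00 (SE 0.59) in Cy5, the same side as A_52_P384394, but gave 0.08 and 0.05 on the genotype arrays, and A_52_P78830, not well above background in Cy5 on any array, gave -0.35 and -0.76. Both of these probes carry the RefSeq accession NM_138313.

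Bcl2l1 was the survival gene with the widest gap between untreated genotypes. Probe A_51_P299454 had Cy3 log2 intensities of 6.39 and 9.05 in wild type and 6.28 and 5.58 in mutant. Both mutant values lay below both wild type values, although wild type replicate 1 was close to mutant replicate 1. The difference was -1.79 (SE 0.64, 95% interval -3.16 to -0.41, limma adjusted p = 0.347), and it rested on wild type replicate 2. Without that array it was -0.47, and without wild type replicate 1 it was -3.11 (limma adjusted p = 6.07e-09). Its second probe read 5.53 and 6.50 against 5.11 and 4.64. When set directly against each other, the genotypes gave Bcl2l1 A_51_P299454 ratios of -0.71 and -1.13, which passed the test at -0.92 (SE 0.22, 95% interval -1.43 to -0.41, limma adjusted p = 0.0283), or 1.89-fold lower in Cy5, while A_52_P510877 read -1.32 and 0.78. The call was lost with a replicate block (adjusted p = 0.0534), with its own arrays only, with median centring, with the Feature Extraction log ratio, without either mutant array and without genotype replicate 4.

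Bcl2 A_51_P380013 read 8.69 and 10.67 in untreated wild type and 8.39 and 9.14 in untreated mutant, with overlap between the genotypes. The difference of -0.92 (SE 0.55, limma adjusted p = 0.597) became 0.07 without wild type replicate 2, and -1.93 without wild type replicate 1 (limma adjusted p = 0.000998). Mcl1 read 8.36 and 9.10 against 7.87 and 8.62, and in treated cells 8.39 and 9.38 against 7.70 and 8.02. Only the treated samples of Mcl1 did not overlap, at -1.03 (SE 0.44, limma adjusted p = 0.533), at -0.53 without wild type replicate 2 and at -1.53 without wild type replicate 1 (limma adjusted p = 0.0439). The second Mcl1 probe differed by -0.03 there.

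Of the death genes besides Bmf, Bad passed the test on the genotype arrays. Its probe A_51_P419364 read 1.32 and 0.54, Cy5 over Cy3, and was fitted at 0.93 (SE 0.21, 95% interval 0.43 to 1.43, limma adjusted p = 0.0253), or 1.91-fold. The call was lost with a replicate block (adjusted p = 0.073), with its own arrays only, with normexp background, with the Feature Extraction log ratio and without any 1 of the treatment arrays. In Cy3 of the treatment arrays the same probe read 7.08 and 7.48 in wild type and 7.43 and 7.75 in mutant, which overlapped, at a difference of 0.31. The second Bad probe read -0.32 and -0.14 on the genotype arrays and was well above background in Cy5 on 1 of 6 arrays. Bid read 8.04 and 8.54 in untreated wild type and 7.75 and 8.55 in untreated mutant, and Bcl2l11, a dim probe, 4.67 and 4.45 against 4.91 and 4.77.

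For Bak1, Bok and Bnip3, levels are given with marked spots kept on every array, so that they share a scale. Bak1 A_52_P225207 read 7.71 and 10.06 in untreated wild type and 8.23 and 7.91 in untreated mutant, and Bok 8.46 and 7.46 against 9.19 and 8.26. Both overlapped between the genotypes. Bnip3 read 9.32 and 9.69 in wild type and 10.04 and 9.81 in mutant, without overlap, with marked spots in both replicates 2. Its fitted difference on this scale was 0.42 (SE 0.39, limma adjusted p = 0.666). How many of all probes did not overlap on this scale was not counted. On the genotype arrays Bok read 1.01, with 0.78 in the marked spot of replicate 4, at a limma adjusted p of 0.081, and was called with marked spots kept (0.91, adjusted p = 0.01). Bnip3 was fitted at 0.61 (SE 0.18, limma adjusted p = 0.0809).

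**Figure D3:**
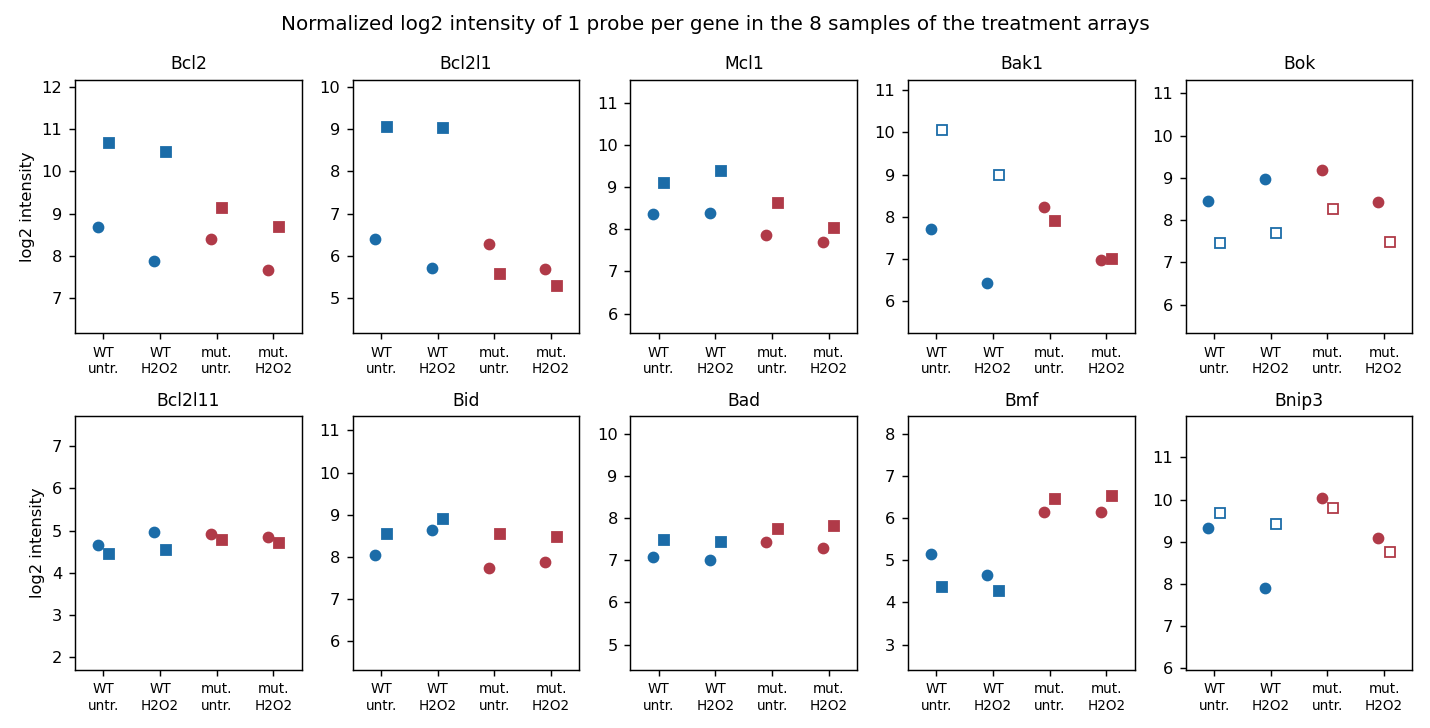
Log2 intensity (vertical axis) of 1 probe per gene in the 8 samples of the treatment arrays, with untreated cells in Cy3 and treated cells in Cy5. Circles are replicate 1 and squares replicate 2, blue is wild type and red mutant, and open symbols are spots marked as outliers, with every sample of Bak1, Bok and Bnip3 drawn on the scale that keeps such spots. Both mutant samples lie above both wild type samples for Bmf, and wild type replicate 2 stands above the other samples for Bcl2l1 at 9.05 and 9.03.

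In counts, the genotype arrays called 3 of 18 member probes, Bmf and Bad above 0 and Bcl2l1 below, 16.7% against 19.6% of 41099 probes. The share of the members was thus near that of the array as a whole. At an unadjusted p under 0.05 there were 6 probes, 33.3% against 35.9%, and at the study's thresholds 0, against 1.76%. Within Cy3, 0 of 18 passed, against 0.534% of 40267, and 3 probes, of Bmf and Bcl2l1, had an unadjusted p under 0.05, 16.7% against 10.2%. Within Cy5 it was 0 of 18 against 0.368%, and 4 probes, of Bmf, Mcl1 and Bcl2l1, or 22.2% against 9%. Genotypes did not overlap for 5 of the 12 member probes measured in all samples in Cy3, 41.7% against 43% of all probes, and for 6 of 12 in Cy5, 50% against 39.4%. The median difference of the 18 probes, mutant minus wild type, was 0.10 in Cy3 and -0.06 in Cy5, beside -0.10 and -0.09 over all probes.

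**Figure D4:**
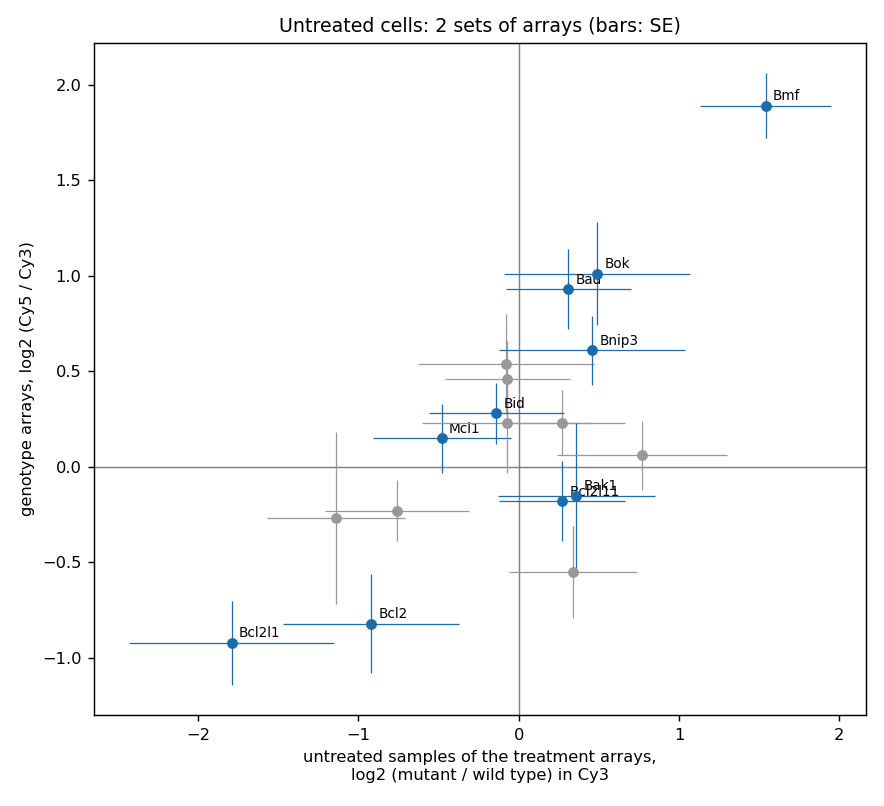
Difference of untreated mutant minus wild type in Cy3 (horizontal axis, log2) against the log2 ratio of Cy5 over Cy3 on the genotype arrays (vertical axis) for the 18 member probes. Blue points are the labelled probe of each gene and grey points the other probes, with bars of 1 SE. Bmf lies at 1.54 and 1.89, and Bcl2l1 at -1.79 and -0.92.

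The rest of the mitochondrial death pathway was read from lists taken from general knowledge. Of 19 other BCL2 family and BH3 genes, 16 were on the array and 14, 15 and 14 had a value in the wild type, mutant and Cy3 comparison. Bax, the other main effector, had none in these 3. The apoptosome, caspase and inhibitor genes had 16, 17 and 16 with a value, and the death receptor branch 8 in each. None of the genes with a value passed there. At an unadjusted p under 0.05, where all probes had 9.98% higher and 10% lower in wild type and 5.81% and 6.21% in mutant, the other family genes had 1 higher and 1 lower in wild type and 2 and 2 in mutant, with medians of -0.08 and -0.17. The apoptosome genes had 4 higher and 1 lower in wild type and 2 higher and 0 lower in mutant, with medians of 0.16 and 0.12. The death receptor genes had 2 higher and 1 lower in wild type and 1 higher and 0 lower in mutant, with medians of 0.23 and -0.06.

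Of these genes Pmaip1 (Noxa), a BH3-only target of p53 that binds Mcl1, had the lowest p in both genotypes. It read 1.29 on the 1 wild type array with an unmarked spot and 1.65 and 1.76 in mutant, with no ratio near 0. The fitted mutant value was 1.70 (SE 0.16, unadjusted p = 4.51e-05, limma adjusted p = 0.155) and that in wild type 1.29 (SE 0.23, limma adjusted p = 0.0649). Fas, a death receptor, read 1.00 and 0.36 in wild type and 1.36 and 0.84 in mutant (limma adjusted p = 0.153 and 0.230). Cflar, which blocks caspase 8, read -1.09 and -0.56 in wild type and -0.19 and 0.02 in mutant (limma adjusted p = 0.163 in wild type).

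The others named by the lowest p were, in wild type, Aifm1 (0.44 and 0.60) and Bcl2a1b (-0.40 and -0.39), a survival gene. In mutant they were Bik (0.76 and 0.51), Casp6 (0.57 and 0.55), Casp12 (0.88 and 0.90) and Fasl (-0.35 and -0.43). In wild type Casp12 read -0.44 and -0.23 and Fasl 0.25 and 1.04, on the other side of 0. Casp6 read 0.44 and 0.42 there, the same side as in mutant, and Bik -0.20 and 0.30. The genes named in wild type read 0.26 and 0.15 (Aifm1) and -0.36 and -0.10 (Bcl2a1b) in mutant. In the comparison that named them, their limma adjusted p lay between 0.125 and 0.523.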

How the data were processed

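The authors hybridised 6 two-colour Agilent arrays and deposited scanner intensity values per spot for each array (Feature Extraction 7.5.1 per the file headers; the methods name another version), with outlier, saturation and background flags. The same deposited files hold a log10 ratio of red over green, and a deposited table holds log2 ratios that the authors background-subtracted and loess normalized (r of at least 0.9994 with the values computed here with marked spots kept; Cy5 over Cy3, array medians 0.002 to 0.018). RNA is named as total in the labels and as cytoplasmic in the methods.

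From the intensities, mean signal minus local background median was loess normalized within arrays, control and outlier spots were dropped while saturated spots stayed in, and repeated spots of a probe were averaged. All 6 arrays were fitted with limma 3.58.1 in R 4.3.3 (lmFit, eBayes), with Benjamini-Hochberg adjustment over all probes and a threshold of 0.05. Genotypes within a dye were compared after Aquantile scaling, 2 against 2. A fit drops a marked spot, so a value from 1 array takes its spread from the probe's other comparisons and the fit across probes. Bok, with 1 value left in each comparison, takes it from the fit across probes alone. Code was tested on simulated data.

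All 18 probes were tested. Each gene is shown by its probe of highest mean intensity among those with a value on every array, or on most arrays where none had all, and other probes are named where they disagree. From the wider lists the 2 genes of lowest p in each treatment comparison are named, since none was called; 1 of them is not reported here. Members and lists were chosen with earlier results of these data known. Gene positions and names are from RefSeq, GRCm38.p6, by symbol. The arrays' own build is not given in the sources used here.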

Additional observations from a re-analysis of the deposited data

How the results depend on the processing

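Counts are of member probes called, of 18 with a value unless another number is given. For the wild type response (0) they were 1 with normexp background (Bnip3, -1.32), 4 with its own arrays only (Bak1, Bcl2, Bid, Bnip3) and 0 to 4 when an array was left out, the 4 arising without either genotype array (22.8% of all probes). For the mutant response (0) they were 4 with its own arrays only (Bak1, Bcl2, Bnip3, Bok) and 0 to 3 with an array left out, the 3 again without either genotype array (9.91%). A setting with own arrays only and outlier spots kept was added after seeing the data. It gave 1 in wild type (Bak1), 5 in mutant and 1 on the genotype arrays, against 17.9%, 14.2% and 4.75% of all probes. With normexp background 5.56% of all probes were called in wild type, and with own arrays only 25.1% there and 10.7% in mutant. For the genotype arrays (3) they were 5 with outlier spots kept and 5 from the series table, 1 with the Feature Extraction log ratio, 1 with own arrays only, and 1 to 8 with an array left out. Leaving out genotype replicate 3 gave 8 of 16 (43.2%), leaving out replicate 4 gave 7 of 17 (28.9%), and the former turned Bak1 from -0.15 to 0.68 (-0.98 without replicate 4). Bmf A_52_P384394 was called there under all 14 alternatives run (0.99 to 2.07), Bcl2l1 under 7 of 15 and Bad under 6 of 15. The alternative limited to probes of mean log2 intensity of at least 6 left out this Bmf probe, whose mean was 5.66. Of all probes, 22.4% were called on these arrays with outlier spots kept and 22.3% from the series table. The Feature Extraction log ratio called 8.16% and own arrays only 5%. In the Cy3 comparison 3.2% of probes of mean log2 intensity of at least 6 were called. For the difference of the responses the count was 0 to 0 with an array left out. In Cy3 (0) it was 1 among probes of mean log2 intensity of at least 6 (Bcl2l1, of 12 tested) and 0 to 4 with an array left out, in Cy5 (0) 0 to 5. The 4 and 5, of 13 tested, arose without wild type replicate 1 (14.2% and 8.35% of all probes), when Bcl2l1 stood at -3.11 in Cy3 and -3.53 in Cy5.

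The replicate numbers mark no stated pairing, and deviations of same-numbered arrays had r = -0.046 in the ratios, 0.18 in Cy3 and 0.083 in Cy5. A replicate block left 1 genotype call (Bmf) and 0 in the other comparisons. Over all probes, own arrays only called 10115 in wild type (104 in the fit reported), 4380 in mutant (0), 2057 on the genotype arrays (8061) and 513 for the difference (0). The cause of these shifts was not tested. Scan date or slide as a block was not run, since each array was a slide of its own. Cy5 signal limits the dim probes most: Bcl2l11 and Bmf A_52_P78830 were well above background in Cy5 on 0 of 6 arrays.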

Other observations

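On the genotype arrays, genes of the wider lists were called beside the members, named here after their values were seen. With Cy5 over Cy3 as the scale, 4 of 8 death receptor genes were called above 0 and 1 below, with a median of 0.63, where 9.83% of all probes were called above and 9.78% below. Fibroblast markers had 4 of 10 called above and 0 below, with a median of 0.62. The gene below was Cflar, at -1.44 (SE 0.28, limma adjusted p = 0.0150), which read -1.99 and -0.89 on the 2 arrays. In Cy3 of the treatment arrays Cflar read 7.27 and 7.99 in wild type and 6.03 and 6.36 in mutant. These did not overlap, as for 43% of all probes measured in all samples, at -1.44 (SE 0.41, limma adjusted p = 0.207). The 4 death receptor genes above 0 were Fasl (2.15), Tradd (1.19), Tnfrsf10b (0.73) and Tnfrsf1a (0.73). Their differences in Cy3, mutant minus wild type, were 0.07, 0.31, 0.29 and -0.06, none called. The apoptosome and caspase list had 3 called above and 1 below of 17, and the other family genes 0 above and 2 below of 16. One of these, Bcl2a1b, stood at -0.62 (SE 0.17, limma adjusted p = 0.0423).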
